A study of Mus musculus with 10 samples.

Results

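The 6 knockout clones of the series were treated as a joint group and compared with wildtype, so that each gene was asked for a difference carried by every clone whichever gene had been inactivated. The cells were O9-1, a tetraploid mouse line of cranial neural crest origin. RNA came from 4 wildtype cultures (WT/1 to WT/4), from 3 clones with CRISPR/Cas9-edited *Kat5* (Kat5/1 to Kat5/3) and from 3 clones with edited *Ep400* (Ep400/1 to Ep400/3), all grown on Matrigel in preconditioned O9-1 medium. All 10 libraries of the series entered a joint fit. Each clone was grown from a single sorted cell and sequenced as 1 library, so that clone and library cannot be told apart. Transfection, sorting and growth from single cells are described for the clones and not for the wildtype cultures. A difference shared by all 6 clones therefore cannot be told apart from an effect of these steps. Some alleles of Ep400/2 and Ep400/3 carry in-frame deletions in the ATP binding site in place of frameshifts. The members are the genes for which all 6 clones lay outside the wildtype range on the same side, and they numbered 458 (3.35%) of 13665 genes tested, out of 43346 in the count table.

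Kat5, also called Tip60, is a histone acetyltransferase, and Ep400 is an ATPase that helps to place the histone variant H2A.Z into nucleosomes. Both are subunits of the Tip60/Ep400 complex, which opens chromatin at many promoters. Several of the gene lists used here belong to the amino acid response, in which the transcription factor ATF4 binds C/EBP-ATF response elements and switches on enzymes that make amino acids, tRNA synthetases that load them, and regulators such as Trib3 and Chac1 when amino acids run short or the endoplasmic reticulum is stressed.

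The libraries held 30968945 to 48301792 counts on genes, with 0.893% to 3.24% on mitochondrial genes and 7.15% to 10.8% on the top 20 genes of each library. Counts were divided by the effective library size (TMM) and multiplied by its mean over the libraries, and these normalized counts are given throughout. *Kat5* had 2160, 1835, 1969 and 2120 normalized counts in WT/1 to WT/4 and 862, 616 and 870 in Kat5/1 to Kat5/3, against 2433, 2986 and 2610 in the Ep400 ko clones. *Ep400* had 5971, 5908, 5896 and 6204 in wildtype, 2063, 2315 and 2260 in Ep400/1 to Ep400/3, and 5511, 8628 and 6287 in the Kat5 ko clones. Each targeted gene was therefore lowest in its own clones, without overlap, and neither was a member. In a fit with 3 groups, *Kat5* was lower in its clones by a log2-fold change of −1.37 (SE 0.17, adjusted p = 0.0146, edgeR quasi-likelihood test with Benjamini-Hochberg adjustment) and *Ep400* in its clones by −1.44 (SE 0.16, adjusted p = 0.00281, same test). The *Kat5* call was lost without WT/1, WT/4 or Kat5/3 (adjusted p up to 0.0885). *Kat5* overlaps *Rnaseh2c* on the opposite strand, and whether strand was used in counting is not given in the sources used here.

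The 12 marker genes of neural crest and mesenchyme were counted in every library, with summed normalized counts of 86750 to 100000 in wildtype and 95650 to 159100 in the clones, but the neural crest genes *Sox10* and *Foxd3* were at 0 in all libraries. The pluripotency markers *Pou5f1*, *Zfp42* and *Esrrb* were at 0 as well. Markers of epithelium summed to 61.9 to 181 in wildtype and 15.7 to 36.7 in the clones, and *Krt8* and *Krt18*, keratins of simple epithelia, lay below the wildtype range in all 6 clones, *Krt18* not with centred chromosomes. Endothelial markers summed to 36.9 to 63.1 and 7.42 to 27.0, with *Pecam1* as the member of the list that was tested. Marker sums of some other cell types varied more widely among the clones than in wildtype. Those of smooth muscle were 2015 to 2944 in wildtype, 28530 in Kat5/1 and 716 to 3602 in the other clones. Those of chondrocytes were 221 to 943 in wildtype, 145 to 2120 in the Kat5 and 35.4 to 73.5 in the Ep400 ko clones, and those of neurons 114 to 214, 66.2 to 379 and 236 to 967. The part of such cells in the results was not tested, and in these bulk samples fewer cells of a type and less RNA per cell cannot be told apart.

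Among the 500 most variable genes, the mean Euclidean distance between wildtype and clones was 71.5 on the log2 scale, against 35.6 between wildtype libraries, 70.1 between Kat5 ko clones, 50.7 between Ep400 ko clones and 94.5 between a Kat5 and an Ep400 ko clone. The clones of the different knockouts were thus farther from each other than from wildtype (66.7 for Kat5, 76.3 for Ep400). The mean distance between wildtype and clones exceeded that within them, over all pairs of libraries of a group, by 3.60 (exact one-sided permutation test over 210 splits, p = 0.19).

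**Figure D1:**
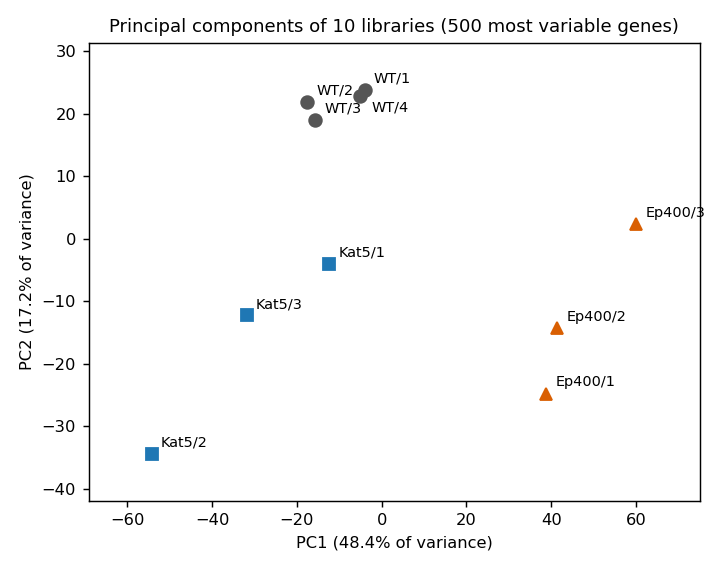
Scores of the 10 libraries on the first and second principal components of the 500 most variable genes, in log2 units, with circles for wildtype, squares for Kat5 ko clones and triangles for Ep400 ko clones. PC1 (48.4% of variance) places Ep400 ko clones at 38.8 to 60.1 and Kat5 ko clones at −54.2 to −12.3 with wildtype between them, and PC2 (17.2%) places wildtype at 19 to 23.8 and the clones at −34.4 to 2.28.

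Of the genes tested, 230 (1.68%) had all 6 clones above the wildtype range and 228 (1.67%) had all 6 below it. Both sets had a similar size, but the genes below differed by more. The median log2-fold change was −0.92 below and 0.56 above, against 0.08 over all genes tested, and 107 genes below and 45 above differed by 1 log2 unit or more. Protein-coding genes made up 432 of the 458, and 385 had a mean over 100 in wildtype or clones. Members with such a mean and a difference of 1 log2 unit or more numbered 92 (0.673%). The step from the wildtype range to the nearest clone had a median of 0.15 log2 units below and 0.09 above, so that most members lay only just outside. With libraries left out in turn, 203 (without Ep400/1) to 412 (without WT/3) genes lay above. Below, there were 275 (without Ep400/1) to 437 (without Ep400/3). Fewer libraries make the rule easier to meet, so a rise is not read as dependence on particular libraries.

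By the test of the 6 clones against the 4 wildtype libraries (edgeR quasi-likelihood test with Benjamini-Hochberg adjustment), 6 genes (0.0439%) were DEGs, which means that they differed by 1 log2 unit or more with a mean over 100 and an adjusted p up to 0.05. All 6 fell, each of them had every clone below wildtype, and 0 genes rose. At an unadjusted p of at most 0.05 there were 1369 genes (10%), 825 of them higher (6.04%) and 544 lower (3.98%).

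*Pck2* (ENSMUSG00000040618, chromosome 14 from 55540266 to 55551242, plus strand, GRCm38) encodes the mitochondrial phosphoenolpyruvate carboxykinase. It had 7526, 4878, 8471 and 7120 normalized counts in WT/1 to WT/4, 1613, 1443 and 1952 in the Kat5 ko clones and 2238, 1151 and 2003 in the Ep400 ko clones. Every clone had less than the lowest wildtype culture, and the range of the Kat5 ko clones lay inside that of the Ep400 ko clones. It fell to 24.8% of the wildtype mean (log2-fold change −2.01, SE 0.21, adjusted p = 0.0151, edgeR).

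*Gpt2* (ENSMUSG00000031700, chromosome 8 from 85492576 to 85527560, plus strand), the mitochondrial alanine aminotransferase, had 3831, 3007, 6006 and 4168 in wildtype, 556, 884 and 658 in the Kat5 and 992, 870 and 1418 in the Ep400 ko clones. The highest clone stayed under the lowest wildtype culture. *Gpt2* fell to 21.1% (log2-fold change −2.25, SE 0.27, adjusted p = 0.0213, edgeR).

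*Rgs8* (ENSMUSG00000042671, chromosome 1 from 153653025 to 153700323, plus strand), a GTPase-activating regulator of G protein signalling, had the widest separation. It had 206, 263, 958 and 203 in wildtype, with WT/3 far above the others, and 7.26, 6.18, 20.7, 4.42, 15.3 and 16.0 in Kat5/1 to Kat5/3 and Ep400/1 to Ep400/3. It fell by 5.11 on the log2 scale (SE 0.62, adjusted p = 0.0213, edgeR). *Adm2* (ENSMUSG00000054136, chromosome 15 from 89322720 to 89324731, plus strand), which encodes the peptide hormone adrenomedullin 2, had 228, 142, 89.3 and 197 in wildtype, 7.26, 16.1 and 14.1 in the Kat5 and 7.07, 3.54 and 1.88 in the Ep400 ko clones. No clone came near the wildtype cultures, and *Adm2* fell by 4.29 (SE 0.56, adjusted p = 0.0319, edgeR).

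*Nupr1* (ENSMUSG00000030717, chromosome 7 from 126623249 to 126630861, minus strand), a small stress-induced nuclear protein, had 1174, 988, 2273 and 1019 in wildtype, 290, 256 and 270 in the Kat5 and 135, 427 and 211 in the Ep400 ko clones. It fell by 2.36 (SE 0.33, adjusted p = 0.0408, edgeR). *Jdp2* (ENSMUSG00000034271, chromosome 12 from 85599027 to 85639878, plus strand), a basic leucine zipper repressor that pairs with AP-1 and ATF proteins, had 1572, 1895, 1475 and 1418 in wildtype, 842, 694 and 687 in the Kat5 and 745, 516 and 663 in the Ep400 ko clones. It had the least spread within the groups and fell by 1.20 (SE 0.16, adjusted p = 0.0319, edgeR). *Nupr1*, *Gpt2*, *Pck2* and *Rgs8* were highest in WT/3, and *Adm2* was lowest there among the wildtype cultures. *Pck2* and *Rgs8* overlap the gene models *Gm10876* and *Gm29529* on the opposite strand, whose reads cannot be told apart from theirs if strand was not used in counting. The same holds for other genes named here that overlap a gene on the opposite strand, among them *Psph* (*Cct6a*), *Aldh1l2* (*D10Wsu102e*), *Eef1b2* (*Ndufs1*), *Rpl23a* (*Tlcd1*), *Crim1* (*Fez2*), *Tgfb3* (*Ttll5*), *Kctd10* (*Myo1h*), *Pdgfd* (*Ddi1*) and *Bcat2* (*0610005C13Rik*), and, with predicted gene models, *Krt8*, *Epha7*, *Cebpg*, *Thbs1*, *Mogat2*, *Pfkfb3*, *Notch3* and *Plxna1*. *Plec* overlaps *Parp10* on its own strand.

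**Figure D2:**
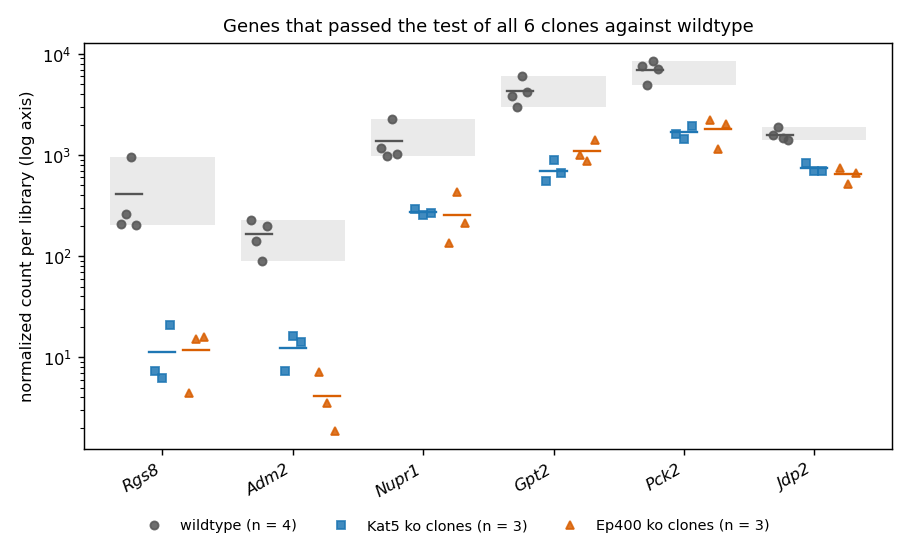
Normalized counts (log axis) of the 6 DEGs in each library, with circles for wildtype (n = 4), squares for Kat5 ko clones (n = 3), triangles for Ep400 ko clones (n = 3), short lines for group means and grey bands for the wildtype range. For all 6 genes every clone lies below the band, and the log2-fold changes run from −5.11 (*Rgs8*) to −1.20 (*Jdp2*).

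The number of DEGs depended on the libraries and on how the clones were modelled. It was 0 without WT/1 or without WT/4, 1 (*Pck2*) without Ep400/1, 2 without WT/2 (*Gpt2*, *Pck2*) or without WT/3 (*Pck2*, *Rgs8*), and up to 9 without Kat5/2. In the 2-group fit the difference between the knockouts counts as spread among the clones (biological coefficient of variation 0.465). A fit with 3 groups (0.359), which tests the mean of both knockouts against wildtype, called 54 DEGs (0.395%), 38 lower and 16 higher, and 36 of them were members, 26 below and 10 above. DESeq2 in the 2-group design called 130, 52 lower and 78 higher. The 6 DEGs were among the calls of both. When each knockout was tested in the 3-group fit, 22 DEGs (0.161%) were called in Kat5 ko clones, 5 higher (0.0366%) and 17 lower (0.124%). In Ep400 ko clones they were 593 (4.34%), 370 higher (2.71%) and 223 lower (1.63%). These comparisons share the wildtype libraries, and their numbers depended on the method. With Kat5 ko clones and wildtype alone, edgeR called 52 DEGs, 40 lower and 12 higher. DESeq2 with 3 groups called more in both knockouts, above all in Kat5 ko clones, as given in the section on processing.

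Apart from cell type markers, the list of amino acid synthesis had the highest share of members. It also holds enzymes that do not themselves make amino acids, among them *Pck2* and, from one-carbon metabolism, *Aldh1l2*. Of 29 tested, 10 had all 6 clones below the wildtype range (34.5%, against 1.67% of all genes) and 0 had all above. *Pck2* and *Gpt2* passed the test in the 2-group fit, and 8 of the 29 did so in the 3-group fit. The list and its genes were chosen with earlier results of these data known. Its median log2-fold change was −0.57, against 0.08 over all genes.

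*Aldh1l2*, the mitochondrial 10-formyltetrahydrofolate dehydrogenase of one-carbon metabolism, had 4355, 1727, 3770 and 4324 normalized counts in wildtype, 254, 219 and 654 in the Kat5 and 776, 167 and 492 in the Ep400 ko clones. All clones were far below all wildtype cultures, at a log2-fold change of −3.05 (SE 0.45, adjusted p = 0.0595, edgeR), which missed the threshold in the 2-group fit. In the 3-group fit it fell by 3.06 (adjusted p = 0.0222, edgeR).

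*Cth*, cystathionine gamma-lyase, the last enzyme of cysteine synthesis from methionine, had 449, 278, 274 and 470 in wildtype, 51.8, 55.6 and 13.3 in the Kat5 and 157, 97.8 and 129 in the Ep400 ko clones. The Kat5 ko clones lay lowest, and the knockouts differed from each other by 1.67 (SE 0.50, adjusted p = 0.0348, edgeR, 3-group fit).

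*Asns*, which makes asparagine from aspartate, had 8874, 7196, 10598 and 9413 in wildtype, 2786, 4708 and 3845 in the Kat5 and 4927, 2135 and 1893 in the Ep400 ko clones (log2-fold change −1.42, SE 0.28, adjusted p = 0.177, edgeR). The clones of both knockouts were mixed in order. *Asns* fell in the 3-group fit (adjusted p = 0.0468, edgeR).

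Both enzymes that lead from glutamate to proline were members. *Aldh18a1*, for the first steps, had 7372, 7086, 10224 and 7453 in wildtype, 3467, 5196 and 3959 in the Kat5 and 2803, 1532 and 1708 in the Ep400 ko clones, with the Ep400 ko clones lowest. *Pycr1*, for the last step, had 928, 906, 827 and 886 in wildtype, 512, 308 and 270 in the Kat5 and 356, 180 and 309 in the Ep400 ko clones, without such an order. The log2-fold changes were −1.37 and −1.46, and neither passed the 2-group test (adjusted p = 0.229 and 0.128, edgeR). Both passed in the 3-group fit, as did *Psph*, the phosphatase that completes serine synthesis (1846, 1574, 1813 and 1719 in wildtype, 478 to 1327 in the clones). The argininosuccinate lyase gene *Asl* (log2-fold change −0.63) and the mitochondrial branched-chain aminotransferase gene *Bcat2* (−0.58) were members with smaller differences that passed neither test.

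The other 19 enzymes of the list overlapped the wildtype range in at least 1 clone. The median of the whole list was −0.79, −0.0019 and −0.08 relative to the wildtype mean in Kat5/1 to Kat5/3 and −0.69, −0.99 and −1.54 in Ep400/1 to Ep400/3, against −0.10 to 0.12 in the wildtype cultures. Kat5/2 and Kat5/3 were thus inside the wildtype range for the list as a whole and below it for the 10 members.

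Of 19 regulators and targets of ATF4 tested, 5 had all clones below the wildtype range (26.3%, against 1.67%) and 0 above, with a median log2-fold change of −0.59. *Nupr1* passed the 2-group test and *Trib3* and *Chac1* did so in the 3-group fit. The median of the list was −1.02 to −0.78 in the Kat5 ko clones, −0.65 to −0.40 in the Ep400 ko clones and −0.37 to 0.46 in wildtype, so that Ep400/2 (−0.40) was only just under WT/2 (−0.37). The summed normalized counts of the list overlapped, with 58660 in Ep400/2 against 52460 in WT/2 and 54510 in WT/4.

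*Trib3*, a pseudokinase that restrains ATF4 and AKT, had 1924, 600, 2435 and 1668 in wildtype, 86.0, 139 and 166 in the Kat5 and 456, 204 and 282 in the Ep400 ko clones. WT/2 was closest to the clones, at a log2-fold change over all clones of −2.90 (SE 0.47, adjusted p = 0.11, edgeR). *Chac1*, which degrades glutathione, had 1487, 891, 2991 and 1263 in wildtype, 238, 265 and 304 in the Kat5 and 715, 758 and 220 in the Ep400 ko clones (−1.99, adjusted p = 0.219, edgeR).

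*Ddit4*, an inhibitor of mTORC1, had 2805, 2807, 5227 and 1980 in wildtype and 609 to 1751 in the clones (log2-fold change −1.66). *Cebpg*, a binding partner of ATF4, had 2055, 2406, 2192 and 2407 in wildtype and 1261 to 1958 in the clones (−0.59). Neither passed in either edgeR fit.

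Of 23 genes for cytosolic tRNA synthetases and their cofactors, 3 were members, all below (13%, against 1.67%). *Sars*, the seryl-tRNA synthetase, had 15195, 13324, 18108 and 14200 in wildtype, 7770, 9488 and 10344 in the Kat5 and 7431, 6979 and 5529 in the Ep400 ko clones (log2-fold change −0.94, adjusted p = 0.177, edgeR). Its adjusted p was 0.0222 in the 3-group fit (edgeR), with a log2-fold change short of 1 in size. *Cars* and *Nars*, for cysteine and asparagine, had log2-fold changes of −0.69 and −0.63. The list median was −0.01 in Kat5 and −0.83 in Ep400 ko clones, and *Nars* differed between the knockouts by −0.79 (adjusted p = 0.018, edgeR, 3-group fit). *Nars* was no longer a member once each chromosome was centred, that is, once the median log2 difference of its genes from wildtype had been subtracted in each library. Of 20 mitochondrial synthetases, 0 lay below (against 1.67%) and *Hars2*, which overlaps *Hars*, lay above (5%, against 1.68%) unless chromosomes were centred. Of 21 amino acid transporters tested, 0 lay outside on either side, against 3.35% of all genes. Lists this small hold few members at such shares, so 0 is not read as a result.

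**Figure D3:**
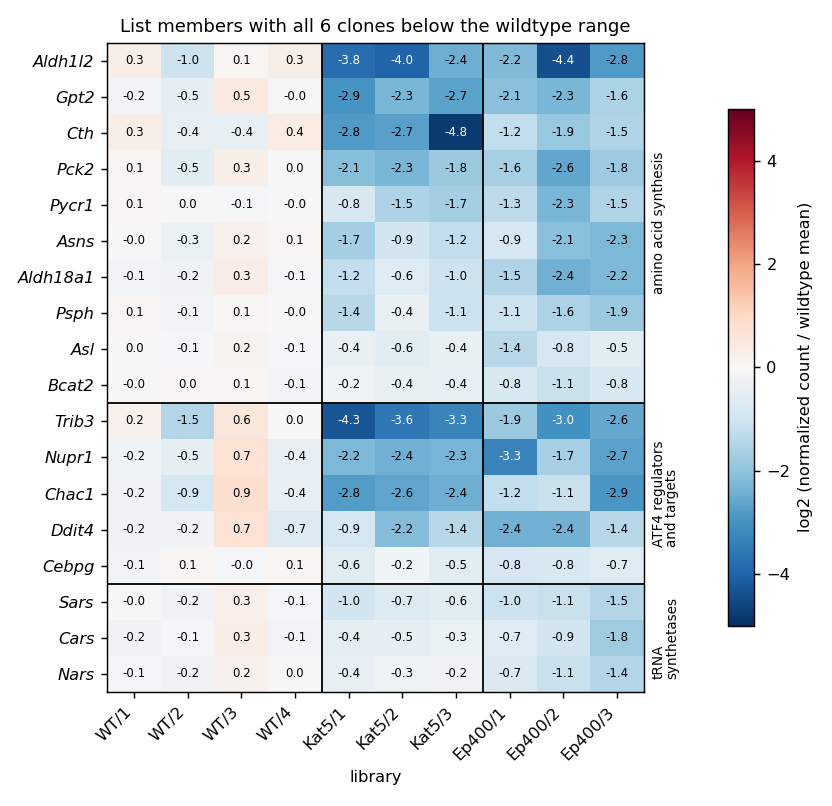
Log2 ratio of the normalized count in each of 10 libraries (columns) to the wildtype mean for the 18 members (rows) from the lists for amino acid synthesis, ATF4 regulators and targets, and cytosolic tRNA synthetases, with blue for lower and red for higher values. Blue fills the 6 clone columns in all 18 rows, from −4.8 (*Cth* in Kat5/3) to −0.2.

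To show what these genes hold upstream of their start, the 250 bases before the start were read from the RefSeq promoter table (GRCm38.p6), which matched 14 of the 18 members of these 3 lists. The letters TGATGNAA of the C/EBP-ATF response element were searched on both strands. They were found for *Nupr1*, *Pck2*, *Chac1*, *Pycr1* and *Asns*, which is 5 of 14, for 2.41% of the 10175 genes tested that had a promoter in the table, and for 3.91% of all 27025 genes there. Since fewer than 80% of the members had a promoter there, a comparison over the set is void. In the following stretches, read in the direction of transcription, the capitals mark the match, which appears as the reverse complement where it lies on the other strand (*Nupr1*, *Pck2* and *Chac1*).
*Nupr1*, chr7:126625547-126625606, minus strand: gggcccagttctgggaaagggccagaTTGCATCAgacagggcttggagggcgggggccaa
*Pck2*, chr14:55540137-55540196, plus strand: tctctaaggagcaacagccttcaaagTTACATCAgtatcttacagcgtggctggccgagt
*Chac1*, chr2:119351023-119351082, plus strand: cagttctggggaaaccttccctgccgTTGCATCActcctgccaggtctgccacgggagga
*Pycr1*, chr11:120643818-120643877, minus strand: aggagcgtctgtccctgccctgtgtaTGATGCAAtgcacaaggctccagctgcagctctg
*Asns*, chr6:7693210-7693258, minus strand: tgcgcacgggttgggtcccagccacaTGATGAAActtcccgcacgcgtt
The matches begin 110, 103, 193, 103 and 23 bases before the RefSeq start in this order. For *Nupr1* and *Asns* the match lies inside the GENCODE gene span (*Asns* from 7675169 to 7693254), so it is not upstream of the GENCODE start. For *Chac1* and *Pycr1* the RefSeq start also lies inside that span, but the match lies before it. A match is a run of letters and was not tested as a binding site. Of the other letters searched, CACGTG (the E-box) was found for 2 of the 14 and 9.87% of the genes tested. TCACNCCAC (the sterol response element), GGAATG (bound by TEAD factors) and the CArG box were found for 0 of the 14 and for 1.22%, 12.7% and 1.39% of the genes tested, or 1.22%, 14.4% and 1.62% of all promoters in the table, where the E-box was in 6.86%.

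The remaining members with the largest differences below came from varied processes, and were ranked after their values had been seen. *Ndrg2*, a differentiation-related protein of the NDRG family, had 462, 1118, 2094 and 480 in wildtype, 93.3, 60.6 and 231 in the Kat5 and 76.0, 50.7 and 38.6 in the Ep400 ko clones. It passed in the 3-group fit (adjusted p = 0.0183, edgeR) but not in the 2-group fit.

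Of 16 genes of fatty acid synthesis, the neighbouring desaturase genes *Fads1* and *Fads2* were members below (12.5%, against 1.67%), with log2-fold changes of −0.76 and −0.71. *Fads1* was no member under scaling by library size alone. The glucose transporter gene *Slc2a3* lay below and *Pfkfb3*, whose product stimulates phosphofructokinase, lay above among 23 glycolysis genes (4.35% each, against 1.67% and 1.68%), the latter not under median-ratio scaling or with centred chromosomes.

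*Creb3l1*, a transcription factor anchored in the endoplasmic reticulum, had 122, 152, 125 and 110 in wildtype and 1.24 to 46.2 in the clones. *Kif21b*, a kinesin motor, had 241, 377, 432 and 220 in wildtype and 8.29 to 110 in the clones. *Cacna1i*, a T-type calcium channel, had 283, 302, 303 and 217 in wildtype and 12.2 to 94.3 in the clones. As members, these genes were selected for groups that do not overlap. None of them passed the 2-group test (adjusted p = 0.279, 0.267 and 0.183, edgeR).

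*Mogat2* (34.4 to 238 in wildtype, 0 to 31.1 in the clones) and *Ctsh*, encoding cathepsin H (71.7 to 179 and 0 to 59.4), had a gap of few counts between wildtype and the highest clone. *Ctsh* differed between the knockouts, with 20.7, 59.4 and 0 in the Kat5 and 2.65, 1.18 and 0.94 in the Ep400 ko clones. *H19*, an imprinted long non-coding RNA, had 145 to 250 in wildtype and 3.71 to 110 in the clones. *Mgst2*, a microsomal glutathione transferase, had 709 to 2145 and 28.3 to 502.

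Among the 228 members below, those with the highest counts, ranked after their values had been seen, differed little. *Eef1a1*, the elongation factor that brings aminoacyl-tRNA to the ribosome, had 419246 to 448945 in wildtype and 335548 to 405440 in the clones (log2-fold change −0.20). Its nucleotide exchange factor gene *Eef1b2* (−0.43) and the ribosomal protein genes *Rpl4* (−0.34), *Rpl23* (−0.33) and *Rpl23a* (−0.28) also had all clones below. *Rpl23* and *Rpl23a* lost this with centred chromosomes, and multi-copy families such as these may share reads with pseudogenes. Of 46 translation factors tested, 2 were members (4.35%, against 1.67%), both elongation factors.

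Above the wildtype range, 0 genes passed in the 2-group fit, so the following values describe members that did not reach the threshold there. They are grouped by function and were partly ranked after their values had been seen. *Gpr149*, an orphan G protein-coupled receptor, had the widest step above wildtype, with 348, 824, 819 and 371 in wildtype, 2358, 1988 and 5251 in the Kat5 and 5597, 3068 and 1760 in the Ep400 ko clones. The lowest clone had more counts than the highest wildtype culture by 1.10 on the log2 scale, and the log2-fold change was 2.50 (SE 0.44, adjusted p = 0.13, edgeR). In the 3-group fit it rose with an adjusted p of 0.0418 (edgeR).

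Among 51 tested ligands and receptors of cell guidance, 3 had all clones above (5.88%, against 1.68%) and 1 below (1.96%, against 1.67%). *Epha7*, an ephrin receptor, had 70.8, 37.0, 54.0 and 80.5 in wildtype, 164, 404 and 243 in the Kat5 and 546, 566 and 1902 in the Ep400 ko clones. All clones were above wildtype, and the Ep400 ko clones were above the Kat5 ko clones by 1.89 (SE 0.54, adjusted p = 0.0292, edgeR). *Sema3c*, a secreted semaphorin needed by migrating neural crest cells of the heart outflow tract, had 228, 304, 137 and 237 in wildtype, 960, 1208 and 999 in the Kat5 and 895, 372 and 853 in the Ep400 ko clones. Both rose in the 3-group fit (log2-fold change 3.10 and 1.93, adjusted p = 0.0244 and 0.0256, edgeR).

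The semaphorin receptor gene *Plxna1* was above by a log2-fold change of 0.18 and was no member under library-size scaling or with centred chromosomes. The ephrin gene *Efna1* lay below (−0.59). *Lingo1*, a neuronal transmembrane protein that limits axon growth, had 9.60, 25.0, 10.8 and 9.13 in wildtype, 39.4, 40.8 and 59.6 in the Kat5 and 600, 395 and 293 in the Ep400 ko clones. The Ep400 ko clones were higher than the Kat5 ko clones by 3.20 (SE 0.48, adjusted p = 0.00413, edgeR).

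Among 31 immediate early genes tested, 2 were members, both above (6.45%, against 1.68%). *Egr1*, a zinc finger factor induced by growth factors, had 186, 241, 146 and 153 in wildtype, 1062, 1285 and 1008 in the Kat5 and 1696, 517 and 252 in the Ep400 ko clones. Ep400/3 was only just above WT/2. *Klf2*, a Krüppel-like factor, had 140, 264, 159 and 112 in wildtype, 555, 333 and 266 in the Kat5 and 841, 884 and 685 in the Ep400 ko clones, with Kat5/3 next to WT/2, and was no member when scaled by library size alone. *Klf2* passed in the 3-group fit (adjusted p = 0.0403, edgeR).

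*Id1* and *Id3*, inhibitors of basic helix-loop-helix factors and classical targets of BMP signalling, were the members among 28 neural crest factors, both above (7.14%, against 1.68%). *Id1* had 585, 526, 558 and 327 in wildtype, 1437, 1628 and 2670 in the Kat5 and 2018, 1983 and 647 in the Ep400 ko clones. *Id3* had 2414, 1515, 2467 and 1713 in wildtype and 2601 to 5739 in the clones, and was no member once chromosomes were centred. Ep400/3 was the lowest clone for both genes. The log2-fold changes were 1.79 and 1.00 (adjusted p = 0.177 and 0.233, edgeR). Of 41 genes of TGF-beta and BMP signalling, 2 lay above (*Id1* and *Id3* again, 4.88% against 1.68%) and *Tgfb3* lay below (2.44% against 1.67%), the latter not under library-size scaling or with centred chromosomes.

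The Notch pathway had 2 members above and 2 below among 15 genes tested (13.3% each, against 1.68% and 1.67%). The ligand gene *Jag1* had 472, 579, 516 and 551 in wildtype, 819, 824 and 1052 in the Kat5 and 1530, 814 and 1890 in the Ep400 ko clones. The target gene *Hes1* had 184, 200, 76.6 and 200 in wildtype and 241 to 710 in the clones. The receptor gene *Notch3* lay below, with 532, 1115, 516 and 509 in wildtype and 24.7 to 501 in the clones, and so did the ligand gene *Jag2* at 24.1 to 36.0 and 2.36 to 17.4. None passed in either edgeR fit, and Kat5/1 had nearly the *Notch3* count of WT/4.

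In the matrix list of 28 genes, 2 had all clones above (7.14%, against 1.68%). *Thbs1*, a matricellular glycoprotein that can activate latent TGF-beta, had 2980, 904, 699 and 3055 in wildtype, 4043, 4959 and 16291 in the Kat5 and 3526, 5978 and 11901 in the Ep400 ko clones. *Fbln5*, needed for elastic fibres, had 1495, 765, 1487 and 1562 in wildtype and 1963 to 4877 in the clones. Neither passed the 2-group test. Of 27 collagens and 32 extracellular proteases tested, 0 had all clones outside the wildtype range on one side, against 3.35% of all genes. At that share so few genes hold hardly any members, so 0 is not read as a result.

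**Figure D4:**
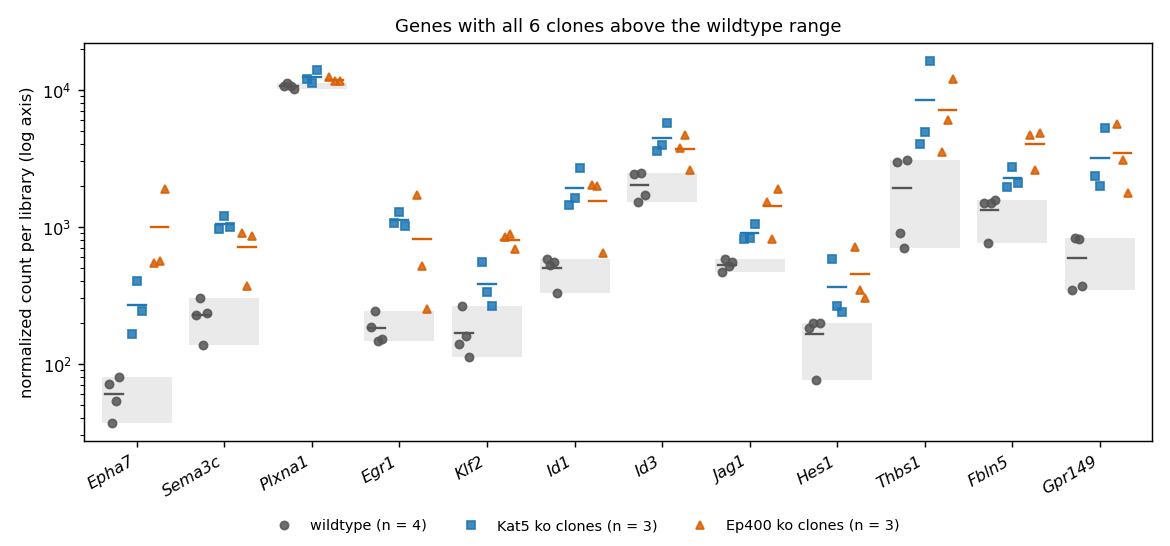
Normalized counts (log axis) of 12 members above the wildtype range in each library, with symbols, lines and bands as for the DEGs below it: circles for wildtype (n = 4), squares for Kat5 ko clones (n = 3), triangles for Ep400 ko clones (n = 3), lines for means, grey bands for the wildtype range. Every clone lies above the band, closely for *Plxna1* (log2-fold change 0.18) and widely for *Gpr149* (2.50).

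Further members above were *Pcdh9*, a protocadherin (185 to 283 in wildtype, 342 to 924 in the clones), *Pmepa1*, a feedback inhibitor of TGF-beta signalling (153 to 197 and 316 to 766), *Crim1*, a transmembrane antagonist of BMPs (1298 to 1682 and 2343 to 4581), the formin *Fhdc1* (46.7 to 185 and 230 to 1109) and *Cpa6*, a carboxypeptidase (10.8 to 28.3 and 49.5 to 359). *Crim1* and *Cpa6* rose in the 3-group fit (adjusted p = 0.0183 and 0.0418, edgeR). Members above with the highest counts were *Plec*, the cytoskeletal linker plectin, *Pttg1ip*, *Plxna1*, *Mat2a*, which makes S-adenosylmethionine, and *Kctd10*, with log2-fold changes of 0.57, 0.56, 0.18, 0.70 and 0.52. With centred chromosomes, *Pttg1ip*, *Plxna1* and *Mat2a* were no longer members, and *Pttg1ip* was none under median-ratio scaling either. Of 33 growth factor and receptor genes tested, 1 lay above and 1 below (3.03% each, against 1.68% and 1.67%). These were the feedback inhibitor gene *Spry2* above (2306 to 2818 in wildtype, 2826 to 6400 in the clones) and the ligand gene *Pdgfd* below (19.2 to 47.8 and 4.42 to 17.7). The chaperone gene *Dnajc3* lay above (2948 to 3437 and 3476 to 5053), and *Nt5e*, the surface enzyme CD73 of mesenchymal cells, below (100 to 223 and 39.4 to 67.8). *Nt5e* was the only member among the 12 neural crest and mesenchyme markers (8.33% below, against 1.67%). Most of that list went the other way, with a median log2-fold change of 0.24 and 3 of the 12 negative. *Spry2* and *Dnajc3* were no members under library-size scaling or with centred chromosomes.

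Among the 20 subunits of the Tip60/Ep400 complex tested, *Meaf6* was the only member (5% above, against 1.68%). It had 504 to 550 in wildtype and 561 to 866 in the clones, a difference lost under library-size scaling or with centred chromosomes. *Meis2* was the only member among 28 facial homeobox genes (3.57% above, against 1.68%), with 2668 to 3310 and 3524 to 5727, and was likewise lost in both. A single member of a list this small is not read as a result about the list. Genes of ribosome biogenesis (54 tested), DNA replication (48), mitosis (41), targets of p53 (25), other histone acetyltransferases (22), chromatin remodelers and modifiers (56), the Wnt pathway (35) and the interferon response (33) had 0 members on either side. The share over all genes tested was 3.35%. Lists of such sizes hold few members at that share, so 0 is not read as a result about them. For ribosome biogenesis the median log2 difference from the wildtype mean was 0.14, 1.09 and 0.93 in Kat5/1 to Kat5/3 and 0.00040, −0.34 and −1.05 in Ep400/1 to Ep400/3, against −0.07 to 0.06 in wildtype, so that 1 clone of each knockout was at or near the wildtype level.

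**Figure D5:**
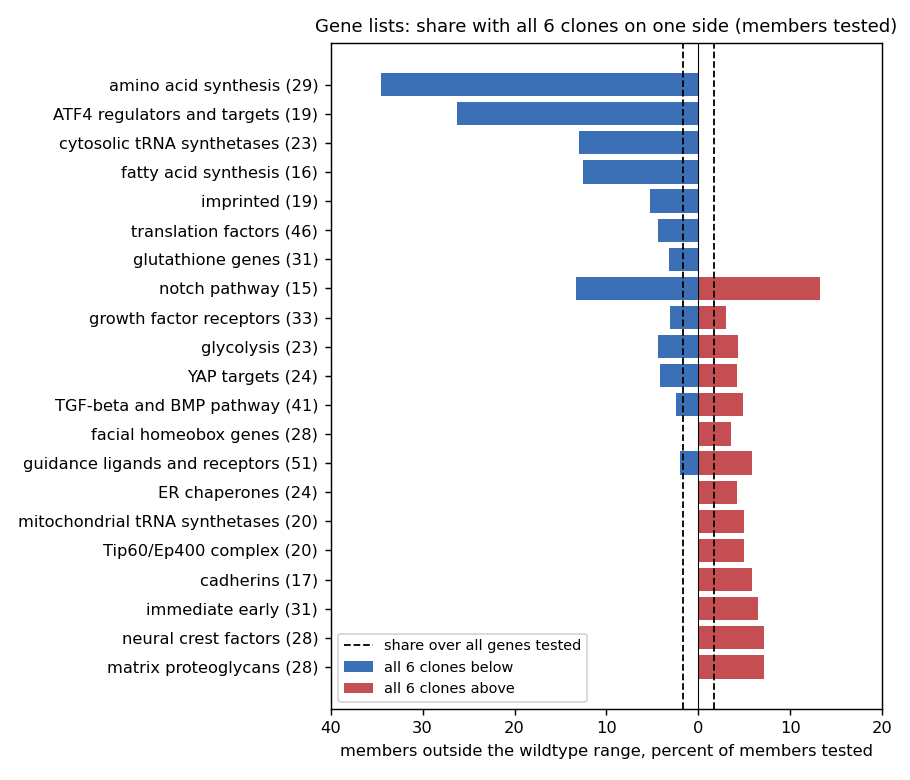
Share of the tested genes of each list (number in brackets) that had all 6 clones below (blue, to the left) or above (red, to the right) the wildtype range, in percent, with dashed lines at the shares over all genes tested (1.67% and 1.68%). Most lists with at least 1 member are drawn, cell type markers left out, and amino acid synthesis (34.5%), ATF4 regulators and targets (26.3%) and cytosolic tRNA synthetases (13%) reach farthest on the left apart from the Notch pathway (13.3%, 2 of 15 genes).

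Members were not spread evenly over chromosomes. All 6 clones were above for 3.69% of genes on chromosome 4, 3.64% on chromosome 16 and 3.11% on chromosome 2, and below for 2.60% on chromosomes 12 and 17. The median log2 difference of all genes of chromosome 4 from the wildtype mean was 0.04 to 0.14 in the clones and −0.04 to 0.04 in wildtype. On chromosome 16 it was −0.31 in WT/3, 0.08 to 0.12 in the other wildtype cultures and 0.01 to 0.21 in the clones. With each chromosome centred per library, 179 genes lay above and 266 below, of which 140 and 190 were among the 230 and 228. Of 74 members followed by name, 59 stayed outside the wildtype range, including all 10 members of the amino acid synthesis list and all 5 ATF4 genes.

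Members could also differ in size between the knockouts. The test of Ep400 against Kat5 ko clones in the 3-group fit called 1753 DEGs (12.8%). At an adjusted p up to 0.05 alone it called 3410 genes (25%) and 35 of the 458 members (7.64%), whose clones the selection held to one side of wildtype, so nothing is read from that share. All 3 Kat5 ko clones were above the wildtype range for 1297 genes (9.49%) and below for 1401 (10.3%), and all 3 Ep400 ko clones for 2137 (15.6%) and 1910 (14%). The knockouts lay on opposite sides of wildtype for 351 genes (2.57%), with Kat5 above and Ep400 below for 146 and the reverse for 205.

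Those with the largest differences included *Cyr61*, a matricellular protein and target of YAP, with 2553, 2653, 1125 and 2234 in wildtype, 5848, 7474 and 9889 in the Kat5 and 770, 794 and 787 in the Ep400 ko clones. *Galnt13*, an enzyme of O-glycosylation, had 61.8 to 124 in wildtype, 593, 168 and 163 in the Kat5 and 12.4, 37.7 and 13.2 in the Ep400 ko clones. In the other direction, *Hs3st6*, a heparan sulfate sulfotransferase, and *Gstt1*, a glutathione transferase, had 0 counts in all 3 Kat5 ko clones. Against a floor of 3 counts per library, the Ep400 ko clones were at least 43.9-fold and 26.7-fold higher. These genes are not members, since the clones did not share a direction.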

How the data were processed

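Polyadenylated RNA of 10 libraries (4 wildtype, 3 Kat5 ko, 3 Ep400 ko) was made into stranded libraries and sequenced by the authors. The authors deposited a table of raw counts, whole reads per gene after mapping to mm10, and STAR 2.7.3 and DESeq2 1.36.0 are named in the submitters' processing notes. The counting program, its strand setting and the annotation are not given in the sources used here. The deposited normalized tables, made within each knockout comparison, were not used.

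Genes were filtered with filterByExpr, libraries were scaled by TMM, and knockout (6 clones) was tested against wildtype (4) with edgeR 4.0.16 (R 4.3.3) by the quasi-likelihood test with Benjamini-Hochberg adjustment over 13665 genes. A DEG differed by 1 log2 unit or more, with an adjusted p up to 0.05 and more than 100 normalized counts on average in wildtype or clones. A gene was a member when the 6 normalized counts of the clones were all above or all below those of wildtype. Values for each knockout and for their difference came from a fit with 3 groups. The members and lists were chosen with earlier results of these data known. Named were *Kat5* and *Ep400*, the DEGs, up to 4 members per list by log2-fold change, and the opposite genes with the largest differences. Rankings over all members and the remaining members of the amino acid and ATF4 lists were added after values had been seen. Some genes that these rules pick are not reported here.

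The labels name separate biological samples for wildtype. A chi-square test of counts between libraries of a group gave 28.4 to 272 per degree of freedom, so none were duplicates. Depth limits the precision less than the number of libraries. The scripts were tested on simulated data. Gene positions on GRCm38 are from GENCODE M21 and were found for 13590 of the genes tested, and promoter sequences are from RefSeq on GRCm38.p6. Alternatives were DESeq2 1.42.0, limma 3.58.1 (trend), other scalings and filters, a 3-group model, a replicate block, centring of each chromosome, and libraries left out.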

Additional observations from a re-analysis of the deposited data

Results flagged for a closer look

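Within a group, the highest or lowest library stood apart by Dixon's test for 23 of 154 groups of values. The rate of about 1 in 20 for normally distributed values does not apply here. The genes were picked from these same values, the counts were not put on a log scale, and the clones mix 2 knockouts. No excess is therefore read from this number. In wildtype, WT/3 was far above the other cultures for *Rgs8* (957.9 normalized counts), *Nupr1* (2273), *Aldh18a1* (10224), *Cars* (8451), *Mgst2* (2145) and *Krt18* (106), and far below them for *Eef1b2* (35940), *Hes1* (76.56) and *Pttg1ip* (8819). WT/2 was far above for *Ctsh* (179.3), *Lingo1* (24.99) and *Notch3* (1115), and far below for *Fbln5* (765). Among the clones, Ep400/3 was highest for *Epha7* (1902), *Cpa6* (358.9), *Hars2* (1767) and *Meis2* (5727), Ep400/2 for *Pdgfd* (17.68) and *Pttg1ip* (28990), Kat5/1 for *Pmepa1* (766) and *Krt18* (12.44), Kat5/2 for *Ctsh* (59.35) and Kat5/3 for *Ndrg2* (231).

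The Ep400 and Kat5 ko clones differed from each other in the 3-group fit (edgeR quasi-likelihood test, adjusted p of at most 0.05) for members on the same side of wildtype. As Ep400 minus Kat5 on the log2 scale, the difference was −1.06 for *Aldh18a1*, −0.53 for *Bcat2*, −0.79 for *Nars*, −3.92 for *Ctsh*, 1.67 for *Cth*, 1.88 for *Cpa6*, 0.58 for *Crim1*, 1.89 for *Epha7* and 3.20 for *Lingo1*. For the targeted genes it was −1.62 for *Ep400* and 1.77 for *Kat5*. For genes on opposite sides of wildtype it was −3.30 for *Cyr61* and −3.88 for *Galnt13*, and at least 4.74 for *Gstt1* and 5.45 for *Hs3st6*, computed against 3 counts per library.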

How the results depend on the processing

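Of the 6 DEGs, all were also called by DESeq2 (130 DEGs, 52 lower and 78 higher), limma, both other scalings and both other filters, and by the 3-group model (54, 38 lower and 16 higher). With centred chromosomes *Jdp2* was lost. With the replicate number as a block, 2 DEGs were called, both lower (*Pck2* and *Rgs8*), but the numbers do not pair the libraries (correlations of deviations −0.0983 to 0.227). With libraries left out in turn, the number of DEGs was 0 (without WT/1 or WT/4) to 9 (without Kat5/2), with 0 to 7 lower and 0 to 3 higher. The fits without WT/1 and without WT/4 gave 927 and 1022 genes at an unadjusted p of at most 0.05.

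Members above numbered 203 (without Ep400/1) to 412 (without WT/3), and members below 275 (without Ep400/1) to 437 (without Ep400/3). Fewer libraries make it easier to lie outside the range where the scaling is fixed, but filter and scaling were redone for each set. Without Ep400/1 or WT/1, fewer genes lay above (203 and 226) than with all libraries (230). Against wildtype, the Ep400 ko clones alone gave 896 DEGs (319 lower, 577 higher) with 2228 genes above and 1949 below, and the Kat5 ko clones alone 52 (40 lower, 12 higher) with 1172 and 1464. DESeq2 with 3 groups, chosen after seeing the data, called 427 DEGs in Kat5 and 985 in Ep400 ko clones. The excess of the distance between wildtype and clones was −2.22 to 11.3 with libraries left out, and was −2.22, −2.1, −2.01 and −2.2 without WT/1 to WT/4. This change of sign follows from the construction, since leaving out a wildtype library takes close wildtype pairs (mean 35.6) from the mean within groups while the clone pairs (80.8) stay. The cause of the other changes was not tested.

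For the members named, 1390 values under alternatives stayed on the same side of the threshold, 120 passed it in addition and 38 no longer did, and none changed sign. These genes were chosen because all clones lay on one side of wildtype, so their sign could hardly change. Most had not passed the main test and simply stayed short of the threshold. Nothing is therefore read from this tally about how firm the results are. Of 74 named members, 71 stayed outside the wildtype range under median-ratio scaling, 66 under library size alone and 59 with centred chromosomes.

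The smallest difference that 4 and 6 libraries can detect was not measured. Clones with low counts, as for *Mogat2* or *Krt18*, differ from wildtype by few reads.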
